A study of Mus musculus with 4 samples.

Results

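Chromosome 19 is the shortest autosome of the mouse, and its open chromatin is described here in the mouse melanoma line B16-F10, with and without Ssbp4. Open regions were mapped by ATAC-seq, which cuts and tags accessible DNA with the transposase Tn5. Calls of 4 libraries that overlapped by at least 1 bp were merged into union regions, and the members are all 1925 union regions of chromosome 19, of 72425 in the whole series and 69262 on the other 18 autosomes. The chromosome was selected on its counts of regions lost and gained in the knockout. Those counts, and every other comparison of the genotypes on it, are therefore given as a description beside the other autosomes, with no test.

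There were 2 wild-type and 2 knockout libraries. For the knockout, cells were electroporated with Cas9 and several fluorescein-labelled guides against Ssbp4. As control the protocol names a guide that cuts chromosome 2 between genes. The labels call the other genotype wild type and do not say in so many words that it received this control. They do not state whether the edited cells were a single clone or a mixed population, or whether libraries of a genotype came from separate cultures, so the spread between them may be technical. Cells were thawed from frozen stocks before nuclei were taken. Whether Ssbp4 was disrupted in the knockout libraries, and whether the cells carried open melanocyte marker genes, was not analysed here, because no gene annotation of the build of the files was used.

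Open regions are mostly promoters and enhancers, where transcription factors keep nucleosomes away. SSBP4 belongs to a family of proteins that bind single-stranded DNA and are best known as partners of LDB1, the adaptor that joins LIM-domain proteins and can bring enhancers and promoters together. Ldb1 itself lies on mouse chromosome 19, as do the immune checkpoint ligand Cd274 and the genes of the stearoyl-CoA desaturases. No region below was assigned to any of them.

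On chromosome 19, 1667 and 1781 regions were called in wild-type replicates 1 and 2, and 1313 and 1465 in knockout replicates 1 and 2. Both knockout lists were shorter than both wild-type lists. The whole lists, over chromosomes 1 to 19, X and Y, held 59215, 63080, 50068 and 57698 calls in the same order, so both knockout lists were the shorter ones in all, though knockout replicate 2 had more calls than both wild-type libraries on chromosome 6. Replicate 2 had the longer list in each genotype. The number of reads behind each list is not known. Chromosome 19 held 2.86% and 2.87% of the autosomal calls in wild type (Wilson 95% intervals of 2.73% to 3.0% and 2.74% to 3.0%). It held 2.66% and 2.58% in the knockout (2.52% to 2.81% and 2.45% to 2.71%). These intervals, like all those below, cover counting error only.

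Chromosome 19 is a well-covered chromosome. Its union regions lay between positions 3254632 and 61319994 of the GRCm39 build, a span of 58.1 Mb, and covered 1.96 Mb of it. It carried 33.2 regions per Mb, the sixth-highest density of the 19 autosomes, among which the others ranged from 17.4 on chromosome 14 to 47.6 on chromosome 11. The median call was 920 and 856 bp long in wild type, then 998 and 918 bp long in the knockout.

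The fold enrichment of a call is the height of the read pileup at its summit over the local background, each with 1 added, as the peak caller MACS2 computes it. The median fold of calls on chromosome 19 was 6.09 and 6.33 in wild type, against 5.83 and 6.15 on the other autosomes. It was 5.12 and 5.37 in the knockout, against 4.55 and 4.70. Fold was thus lower in both knockout libraries than in both wild-type libraries, on chromosome 19 as elsewhere, and in each library chromosome 19 lay above the rest.

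Most regions of chromosome 19 were retained. In all, 1197 of the 1925 (62.2%) were called in all 4 libraries, close to the 60.8% of the other autosomes. A region counted as lost where it was called in wild-type replicates 1 and 2 and in no knockout library, and as gained in the reverse case. By this rule 198 regions were lost, which is 10.3% (Wilson 95% interval 9.01% to 11.7%), beside 6.96% on the other autosomes. Only 9 were gained, which is 0.468%, beside 1.56%. With all lists shortened to the 50068 strongest calls, 97 were lost (5.95%, against 4.56% elsewhere) and 31 gained (1.90%, against 3.53%), and 4 other autosomes had a higher lost share. In the full lists, lost regions made up 95.7% of the 207 regions that were lost or gained, against 81.7% on the other autosomes. Losses outnumbered gains on every autosome in the full lists, and most regions of chromosome 19 were neither lost nor gained.

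The remaining regions had mixed calls. There were 147 called in both wild-type libraries and knockout replicate 2 but not in knockout replicate 1 (7.64%, against 6.84% elsewhere), and 23 missing in knockout replicate 2 instead. Knockout replicate 1 had the shortest list. A further 24 regions were called in both knockout libraries and 1 wild-type library. Regions with a call in a single library numbered 266, or 13.8%, against 17.0% on the other autosomes. Among these, 142 were called in wild-type replicate 2 alone and 64 in wild-type replicate 1 alone. The knockout libraries gave fewer. Knockout replicate 1 alone called 29 (1.51%, against 2.39%), and knockout replicate 2 alone called 31 (1.61%, against 5.02%).

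Set beside each other autosome in the full lists, chromosome 19 had the highest share of lost regions and the lowest share of gained regions. The lost shares that came next were 9.42% on chromosome 13, 9.35% on chromosome 16, 9.14% on chromosome 1 and 8.88% on chromosome 3. Each of these 4 has a Wilson interval that overlaps that of chromosome 19. The lowest lost share was 4.27% on chromosome 6. The gained shares nearest to that of chromosome 19 were 0.759% on chromosome 4 and 0.760% on chromosome 13. Lost regions outnumbered gained regions 22.0 to 1 on chromosome 19 with the full lists. The ratio was 12.4 to 1 on chromosome 13 and 1.32 to 1 on chromosome 6. With lists of equal length, chromosome 19 had 97 lost and 31 gained regions.

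**Figure D1:**
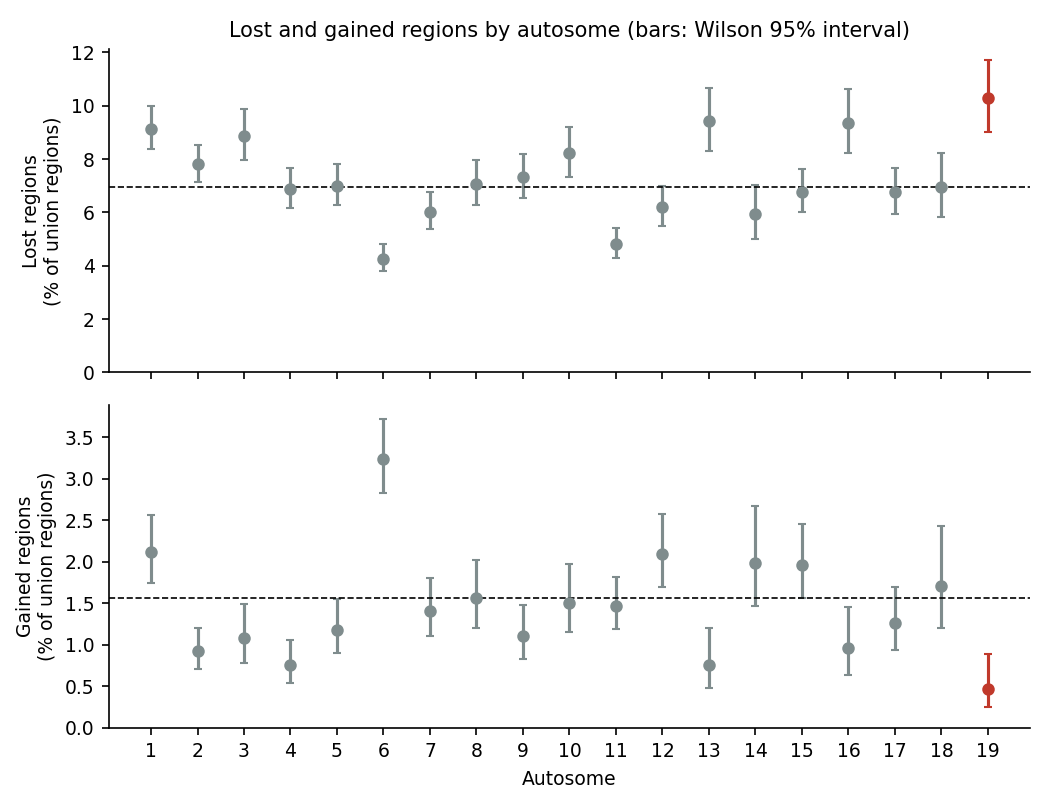
Share of union regions lost (upper) and gained (lower) in the knockout on each autosome, in percent, with Wilson 95% intervals. Chromosome 19 is red, and the dashed lines mark the 6.96% and 1.56% of the other 18 autosomes together; its lost share of 10.3% is the highest point and its gained share of 0.468% the lowest.

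The number of calls on chromosome 19 in the knockout lists was 0.806 times that in the wild-type lists, against 0.884 over the other autosomes together. Chromosome 13 had almost the same ratio, also 0.806 when rounded. Taken by replicate number, which the labels do not present as a pairing, the ratio was 0.788 for replicate 1 and 0.823 for replicate 2. In replicate 1 chromosome 19 was the lowest of the 19 autosomes, and in replicate 2 chromosome 13, with 0.819, was lower.

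Losses were not spread evenly along the chromosome. The 7 bins of 10 Mb, counted from the start of the sequence, held 446, 183, 246, 231, 475, 300 and 44 regions, the last bin being cut short by the end of the chromosome. In the first bin 24 of 446 regions were lost, or 5.38% (3.64% to 7.88%), below the 6.96% of the other autosomes although its interval includes that value. In the fourth bin, from 30 to 40 Mb, 37 of 231 were lost, or 16% (11.8% to 21.3%). In the sixth bin, from 50 to 60 Mb, 41 of 300 were lost, or 13.7% (10.2% to 18.0%). In the second bin 21 of 183 were lost (11.5%, 7.63% to 16.9%). Bins 3 and 5 had 10.2% (6.98% to 14.6%) and 9.26% (6.97% to 12.2%) lost. The intervals count regions and do not measure the spread between libraries of a genotype. In the last bin 6 of 44 were lost (13.6%, 6.40% to 26.7%).

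Bins 2 to 7 together lost 174 of 1479 regions, or 11.8% (10.2% to 13.5%), beside the 5.38% of the first bin. The first 10 Mb of the other autosomes together lost 6.50% of their 2984 regions, against 6.96% over their whole length. Among the 246 bins of the other autosomes with at least 20 regions, the lost share ran from 1.91% to 19.3% with a median of 7.24%, and 10 of them exceeded the fourth bin of chromosome 19. The fullest bin of chromosome 19 is thus high, but inside the range of the other bins.

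In bins of 5 Mb the highest lost share was larger, but its interval overlaps that of the 10 Mb bin around it (11.8% to 21.3%). Between 30 and 35 Mb 24 of 119 regions were lost, or 20.2% (13.9% to 28.3%), and this segment had 102 and 104 calls in wild type but 66 and 68 in the knockout. Between 55 and 60 Mb 35 of 213 were lost, or 16.4% (12.1% to 22.0%), with 174 and 192 calls in wild type, then 119 and 139 in the knockout. In both segments, as in every other 5 Mb bin of the chromosome, each knockout library had fewer calls than each wild-type library. The segment before the latter, from 50 to 55 Mb, lost 6 of 87, or 6.90% (3.20% to 14.2%).

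**Figure D2:**
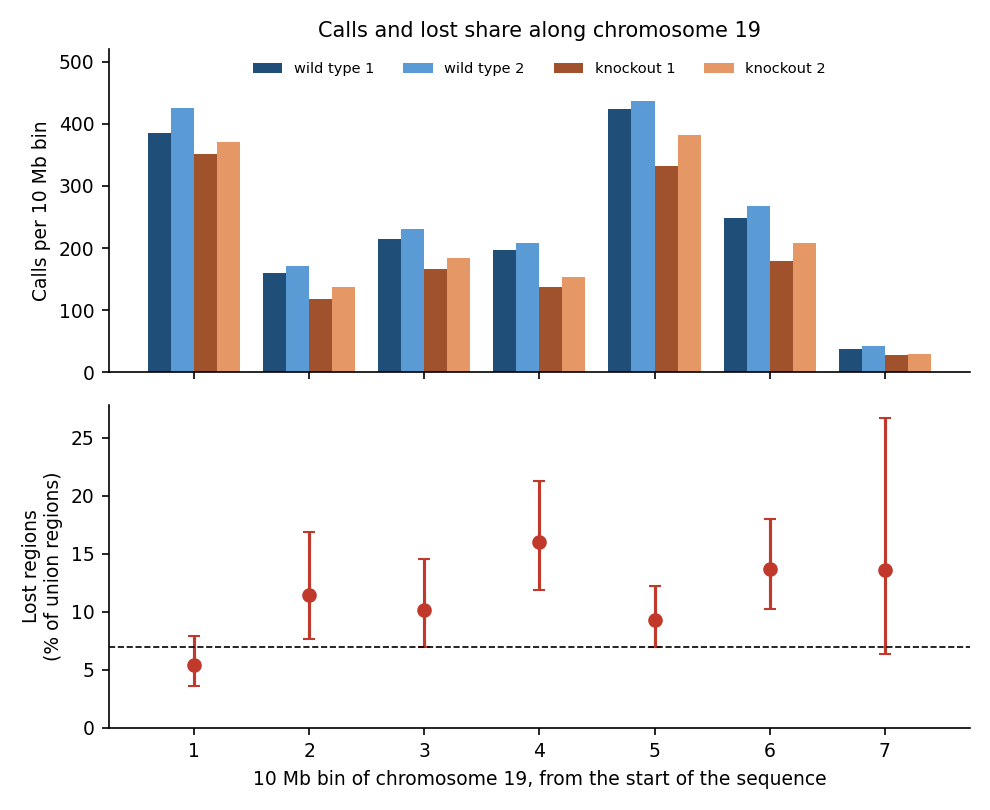
Calls of each library (upper, number per bin) and share of union regions lost with Wilson 95% intervals (lower, percent) in the 7 bins of 10 Mb of chromosome 19. The first bin, at 5.38%, is the only point under the dashed line at 6.96%, the share of the other autosomes, and the fourth bin, at 16%, is the highest.

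Lost regions did not form long unbroken stretches. The longest run of neighbouring union regions that were all lost had 3 members and spanned 8.52 kb, at chr19:27366784-27375301. Lost regions occurred in 50 of the 56 windows of 1 Mb that held any region. The fullest of these windows, from 57 to 58 Mb, had 10 lost among 62 regions. The median distance from a lost region to the nearest region called in all 4 libraries was 14.9 kb, against 11.7 kb on the other autosomes. Of the lost regions, 15 (7.58%, against 9.71% elsewhere) lay within 2 kb of such a region, and 27 (13.6%, against 18.8%) lay over 50 kb away. Regions called in all 4 libraries lay within 2 kb of another such region about as often, at 7.77% and 9.83% elsewhere. Over 50 kb away lay 7.35% and 7.80% of them.

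The lost regions were narrow and weakly enriched in wild type. Their median length was 554.5 bp, with a range from 338 to 3248 bp, against a median of 1191 bp for the regions called in all 4 libraries. Their fold in wild-type replicate 1 had a lowest value of 1.31, a median of 3.51 and a highest value of 11.4. In replicate 2 the values were 1.28, 3.76 and 10.3. Ranked by −log10 p within its own list, the call lay below the 50th percentile in both wild-type libraries for 189 of the 198 (95.5%), against 92.3% of lost regions on the other autosomes. A missing call is not a pileup of 0. Where the local background was at the library's genome-wide value, the lowest pileup that gave a call on chromosome 19 was 29 and 28 in the wild-type lists and 31 and 33 in the knockout lists. Of the lost regions, 13 were shorter than 380 bp, the shortest call of knockout replicate 1.

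Because weak calls are lost more often, regions were compared at equal rank in wild type. Of the 1565 regions called in both wild-type libraries, 12.7% were absent from both knockout libraries, beside 9.16% on the other autosomes. Each region was placed by the lower of its percentiles in the wild-type lists. At ranks up to the 10th percentile 52.1% of regions were lost on chromosome 19 (62 of 119; 43.2% to 60.9%) and 33.2% elsewhere (31.8% to 34.6%). From the 10th to the 20th percentile the shares were 34.9% (27.7% to 42.8%) and 25.3% (24.1% to 26.5%). From the 20th to the 30th they were 28.2% (21.4% to 36.1%) and 17.7% (16.7% to 18.8%). In these 3 weakest classes the share of chromosome 19 was above that of the other autosomes as a pool. The classes split the lost count on which the chromosome was selected, so this is a description and no test. Single autosomes varied widely. Chromosome 19 ranked highest of the 19 in the first and the third of these classes and 3rd in the second, where the highest share was 41.8%.

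In stronger calls the shares lay closer together in percentage points. From the 30th to the 40th percentile 17.1% (12% to 23.7%) and 12.5% (11.6% to 13.4%) were lost, and from the 40th to the 50th 7.80% (4.41% to 13.4%) and 7.22% (6.56% to 7.94%). Above the 50th percentile 6 of 856 were lost on chromosome 19, or 0.701% (0.322% to 1.52%), against 0.761% elsewhere. These 6 strong lost regions are 3.03% of the lost regions of chromosome 19. Their number was 21 without knockout replicate 2, 12 without wild-type replicate 1, 1 with lists of equal length and 0 with strong set above the 75th percentile. On the other autosomes strong lost regions were 0.303% of all union regions and 4.36% of the lost ones.

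**Figure D3:**
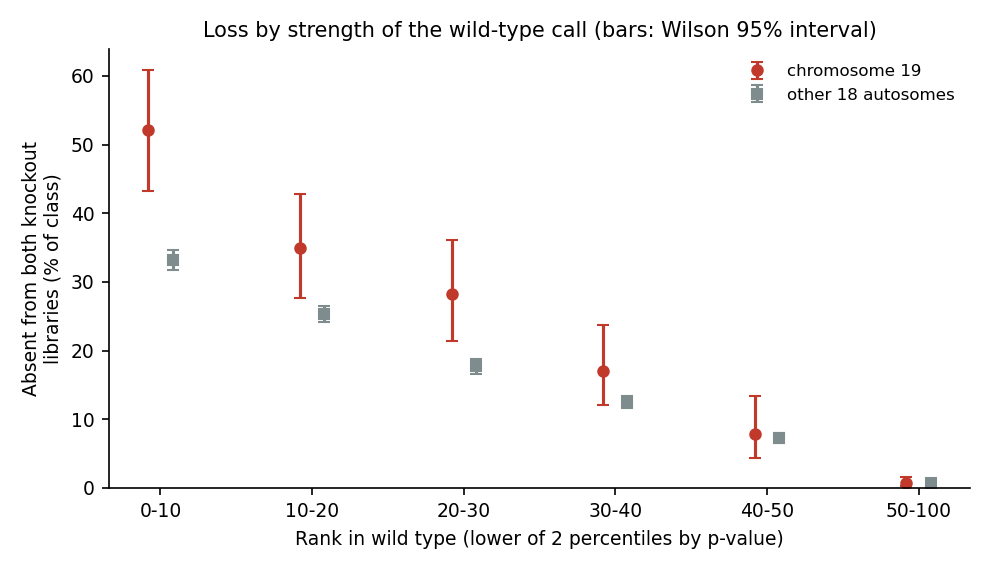
Share of regions called in both wild-type libraries that were absent from both knockout libraries, in percent with Wilson 95% intervals, by the rank of the weaker wild-type call. Chromosome 19 (red circles) lies above the other 18 autosomes as a pool (grey squares) in the 3 weakest classes, at 52.1% against 33.2% in the first, and beside them above the 50th percentile.

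At equal rank the first bin again had the lower shares, within wide intervals. Among regions up to the 10th percentile 13 of 31 were lost there (41.9%, 26.4% to 59.2%), and 49 of 88 in bins 2 to 7 (55.7%, 45.3% to 65.6%). From the 20th to the 30th percentile the counts were 3 of 23 (13.0%, 4.54% to 32.1%) and 37 of 119 (31.1%, 23.5% to 39.9%). The intervals of the bins overlapped in each of these classes. None of the 230 regions of the first bin that ranked above the 50th percentile was lost, with an upper Wilson bound of 1.64%.

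The lost region of highest rank was chr19:20893032-20893868, 837 bp long, with pileups of 175 and 188 in wild type and folds of 10.6 and 10.3. It stood 121 kb from the nearest region called in all 4 libraries. The next was chr19:18867596-18868092, with pileups of 178 and 159 and a distance of 176 kb. Both ranked around or above the 60th percentile of the wild-type lists, far from any retained region.

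The third was chr19:29882817-29883694, with pileups of 134 and 136. The fourth, chr19:30816411-30816765, had pileups of 156 and 186 over a raised background of 26.5 and 30.5, and lay 3.02 kb from a retained region. At 355 bp it is shorter than any call of knockout replicate 1. The fifth, chr19:47410887-47411596, had pileups of 116 and 152, and the sixth, chr19:15686286-15686878, 115 and 143. Wild-type pileups of these 6 strong lost regions were thus at least 115, several times the lowest pileups called in the knockout lists.

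The boundary of the strong class falls just after the sixth region, whose lower percentile was 51.3. The seventh, chr19:30704029-30704586, had a lower percentile of 49.98 and folds of 7.14 and 8.43. The remaining members of the 12 highest in rank were chr19:60658853-60659636, chr19:29871224-29871655, chr19:60871455-60872032, chr19:10511712-10512225 and chr19:18153320-18154236. Their pileups lay between 91 and 121. Within the 12, 4 lay in the second bin, 3 in the third and none in the first. Of all 198 lost regions these bins held 21, 25 and 24 (12.1% in the first), and 12 regions are too few to compare bins. The region at chr19:29871224-29871655 lies close to the third in rank, and the last stood 413 kb from any retained region.

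All 9 gained regions were weak. On the other autosomes, too, only 3 of 1079 gained regions ranked above the 50th percentile in both knockout lists. On chromosome 19 the pileups of the 9 ranged from 35 to 46 in knockout replicate 1 and from 37 to 52 in knockout replicate 2. Their folds ranged from 1.98 to 2.76, and no call ranked above the 16.8th percentile of its list. They therefore sat close to the limit of calling. The first bin held 3 of them. At chr19:5727624-5728708 the pileups were 43 and 37, at chr19:6079119-6079667 they were 35 and 47, and at chr19:7418225-7419222 they were 44 and 52.

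The fourth bin held chr19:31700431-31701073, with pileups of 45 and 44, and chr19:37275318-37275916, with 43 and 39. The fifth held chr19:44480247-44481104, with 46 and 50. In the sixth, chr19:57054891-57055385 had 38 and 50, chr19:57622899-57623579 had 40 and 45, and chr19:58312991-58313955 had 36 and 41. None of the 9 lay within 2 kb of a region called in all 4 libraries, against 7.78% of gained regions elsewhere. The median distance to one was 9.66 kb for the 9 and 10.9 kb elsewhere.

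The regions called in all 4 libraries allow the height of the signal to be compared where no call was missing. Their median pileup on chromosome 19 was 239 and 283 in wild type, then 153 and 200 in the knockout. On the other autosomes it was 196 and 229, then 138 and 172. Pileups are not corrected for the depth of a library, and the knockout values were lower on every autosome, so only the distance between chromosome 19 and the other autosomes is read here. The genome-wide background was higher in the knockout lists (17.2 and 17.4) than in the wild-type lists (14.7 and 15.1). The part that depth plays in the pileups was not tested.

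The median log2 ratio of pileup, knockout over wild type, was −0.45 on chromosome 19 and −0.36 over the other autosomes, a distance of −0.09. It was the lowest of the 19 autosomes, next to −0.43 on chromosome 13, with −0.25 on chromosome 14 at the other end. The ratio was −0.50 for replicate 1 and −0.42 for replicate 2, and −0.41 and −0.33 over the other autosomes. The distance was therefore −0.09 in each. Between libraries of the same genotype the distance from the other autosomes was 0.007 for wild type and 0.001 for knockout. Over the other autosomes, too, ratios within a genotype varied less (SD 0.008 for each genotype, n = 18) than the ratio between genotypes (SD 0.047).

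Region by region, both knockout pileups lay below both wild-type pileups in 906 of the 1197 (75.7%), beside 64.0% on the other autosomes, where single chromosomes ranged from 44.4% to 72.8%. Both lay above in 14 (1.17%), beside 3.24%. In the other 277 the genotypes overlapped. The ratio of the means was below 0 on the log2 scale in 95.7% of regions, against 90.5% elsewhere.

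The local background moved in the same direction as the pileup. It was the lowest of the autosomes as well, with a median log2 ratio of −0.08 on chromosome 19 against 0.05 on the others, which ranged from −0.05 on chromosome 13 to 0.18 on chromosome 6. The background at regions called in all 4 libraries was 28.9 and 31.0 reads in wild type, then 25.5 and 27.6 in the knockout on chromosome 19. On the other autosomes it was 25.3 and 26.8, then 26 and 27.8. The fold, which divides the one by the other, did not set chromosome 19 apart. Its median log2 ratio was −0.36, against −0.37 on the other autosomes, and ranked seventh from the highest.

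The local background of a call includes signal from its surroundings and cannot fall below the genome-wide value of the library, which was 14.7 and 15.1 in wild type, then 17.2 and 17.4 in the knockout. The 213 shared regions of chromosome 19 whose background was at that value in all 4 libraries were also taken alone, a choice made once the data had been seen. Their median log2 pileup ratio was −0.36, against −0.29 at such regions of the other autosomes, a distance of −0.07. Chromosome 13, at −0.37, was then lower. The part that the background plays in the lower pileup was otherwise not tested.

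**Figure D4:**
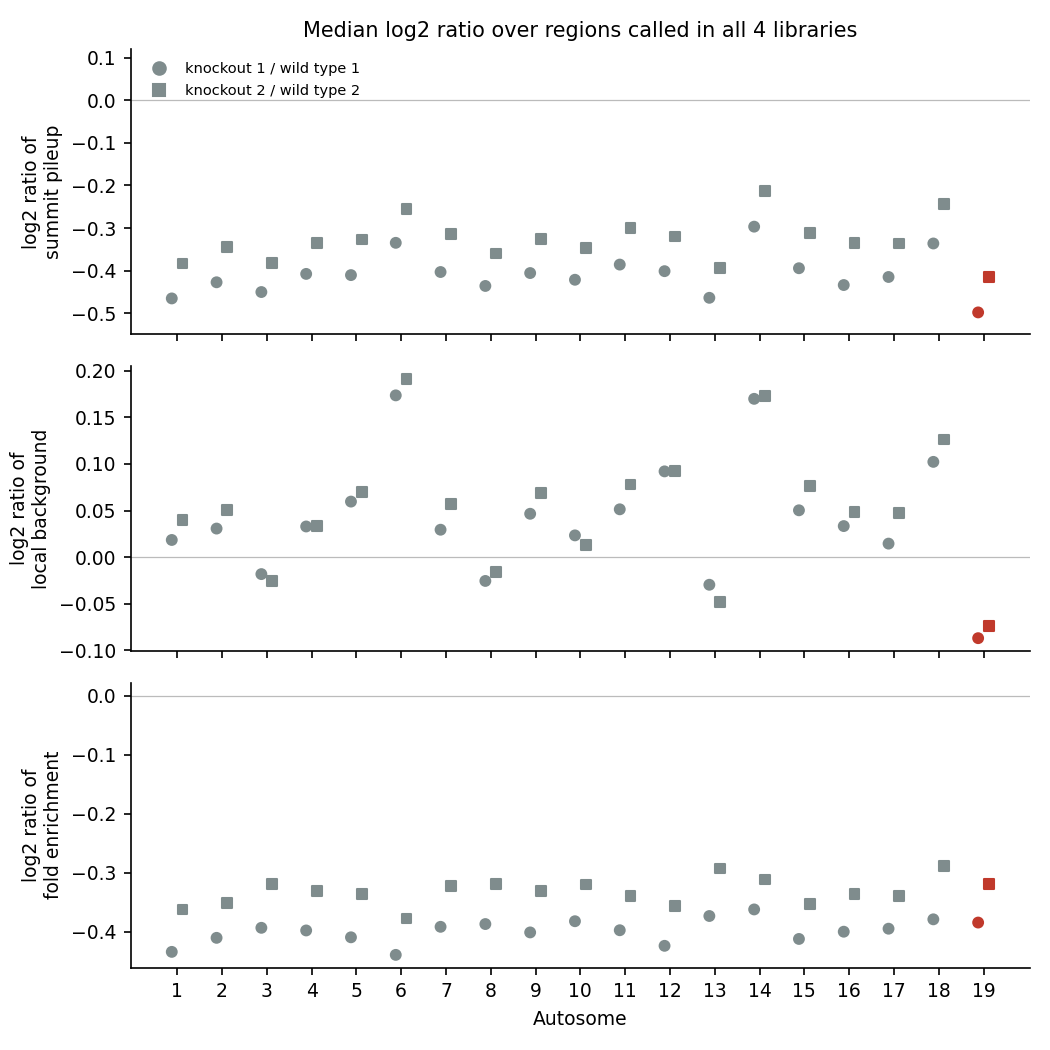
Median log2 ratio, knockout over wild type, of summit pileup, local background and fold enrichment over regions called in all 4 libraries, for each autosome and each replicate number (circles 1, squares 2). Chromosome 19 (red) is lowest for pileup (−0.50 and −0.42) and for background (−0.09 and −0.07), and lies among the other autosomes for fold.

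Shared regions were also split at the 25th, 50th and 75th percentile by the lower of their wild-type percentiles. From the weakest to the strongest class the median log2 pileup ratio was −0.17, −0.40, −0.55 and −0.46 on chromosome 19. On the other autosomes it was −0.04, −0.31, −0.44 and −0.40. Chromosome 19 was lower in each class, by the least in the strongest. The weakest class held 103 regions and the strongest 459. A weak region enters this split only where both knockout libraries also gave a call. Of regions up to the 10th percentile in wild type, 19.3% were called in both knockout libraries on chromosome 19 and 36.1% elsewhere. Above the 50th percentile 97.4% and 97.6% were. The ratios of the weak classes are therefore not those of all weak regions.

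Along the chromosome the pileup ratio followed the losses only in part. It was −0.35 in the first bin, near the −0.36 of the other autosomes, and −0.43, −0.54, −0.47, −0.50, −0.54 and −0.43 in bins 2 to 7. Bins 2 to 7 together had −0.49. Both knockout pileups lay below both wild-type pileups in 67.3% of the shared regions of the first bin and in 78.7% of those in bins 2 to 7. At regions with the genome-wide background in all 4 libraries the ratio was −0.26 in the first bin (27 regions) and −0.38 in bins 2 to 7 (186 regions).

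The sixth bin, at −0.54, was lower than each of the 242 bins of the other autosomes with at least 20 shared regions, though the lowest of those, also −0.54 when rounded, was almost equal to it. Only 2 of the 242 were lower than the third bin and 6 were lower than the fifth. For the first bin 166 were lower. The fourth bin, which had the highest lost share, had 9 lower. The fifth bin had a lost share of 9.26%, but 85.9% of its 304 shared regions had both knockout pileups below both wild-type pileups, the highest share of the 7 bins, and none had both above.

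In bins of 5 Mb the ratio was −0.36, −0.35 and −0.33 over the first 15 Mb, and between −0.42 and −0.58 in each bin after that. The ratio therefore stepped down at 15 Mb. The local background also fell there, from 0.05 between 10 and 15 Mb to −0.04 between 15 and 20 Mb (71 and 43 shared regions). The fall was mostly in replicate 1, from 0.05 to −0.10, with 0.03 to 0.01 in replicate 2. The local background did not follow the pileup over the whole chromosome. It was −0.07 and −0.06 in the first pair of 5 Mb bins, where the pileup ratio was near that of the other autosomes, and 0.03 between 30 and 35 Mb.

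**Figure D5:**
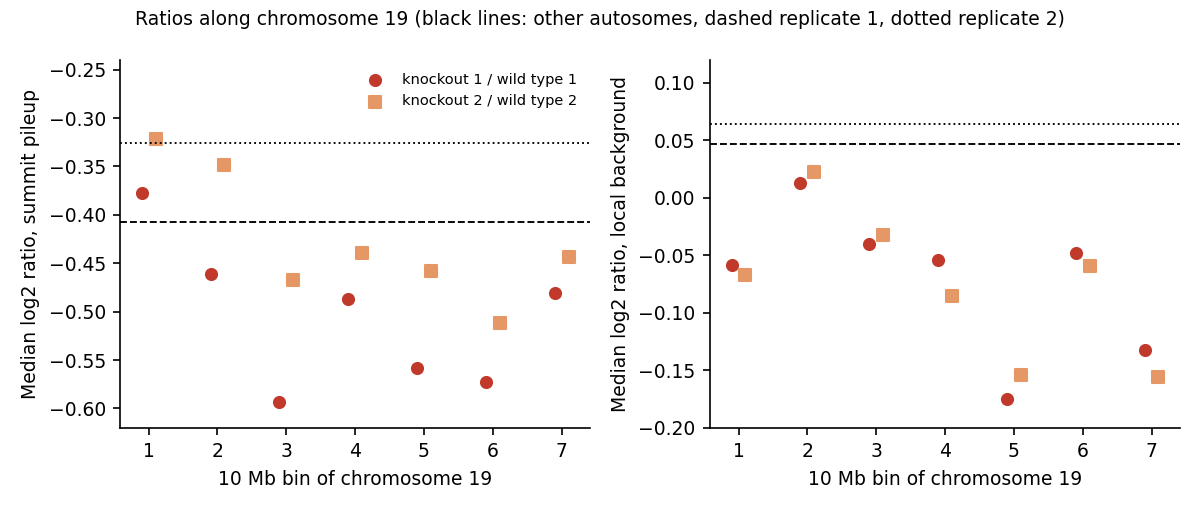
Median log2 ratio, knockout over wild type, of summit pileup (left) and local background (right) over the regions called in all 4 libraries in each 10 Mb bin of chromosome 19, by replicate number, with the other autosomes as black lines. For pileup the first bin lies at −0.38 and −0.32, next to −0.41 and −0.33 elsewhere, and the later bins lie lower; for background every bin lies below the lines.

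Single regions varied widely around these medians, from −1.71 to 0.82 on the log2 scale. The lowest was chr19:60743793-60745603, in the last bin, with pileups of 480 and 864 in wild type, then 164 and 235 in the knockout. The next was chr19:5322298-5324077, with 170 and 417 against 74 and 94. The wild-type libraries differed from each other by more than the knockout libraries did in both, yet all wild-type values lay above all knockout values.

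At chr19:47338954-47340040 the pileups were 300 and 347 in wild type, then 89 and 116 in the knockout, a log2 ratio of −1.67. At chr19:52182404-52184163 they were 251 and 266, then 89 and 84, and this region stood 727 kb from the next shared region. At chr19:59931166-59932515 they were 485 and 1119, then 221 and 284. The first and the second of these 3 had close values within each genotype and wide gaps between genotypes.

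The highest ratio was found at chr19:6789962-6790549, where the pileups were 493 and 487 in wild type, then 890 and 839 in the knockout, a log2 ratio of 0.82. The second was its neighbour chr19:6739420-6739915, with 112 and 129 in wild type, then 197 and 209 in the knockout, a log2 ratio of 0.76. Both are narrow, at 588 and 496 bp, and lie next to each other in the order of shared regions. The shared regions on either side did not rise. At chr19:6712901-6713823 the pileups were 114 and 137 in wild type, then 82 and 97 in the knockout, and at chr19:6817324-6818829 they were 324 and 512, then 219 and 298.

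The local background rose at the higher of the pair too, from 36.0 and 33.9 to 70.7 and 60.9, and its fold was 13.4 and 14 in wild type, then 12.4 and 13.6 in the knockout. By fold the genotypes overlapped there. At chr19:6739420-6739915 the fold was 7.21 and 8.05 in wild type, then 8.10 and 10.2 in the knockout, and did not overlap.

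The other regions with both knockout pileups above both wild-type pileups that ranked highest were weaker. They were chr19:57446866-57448732, with pileups of 34 and 32 against 49 and 55, and chr19:55971000-55971695, with 32 and 30 against 39 and 46. The last, chr19:39247623-39249218, had 53 and 53 against 69 and 74. The first and the last of these 3 had a higher pileup than any gained region in each knockout library.

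At the other end of the scale stood the regions of highest rank in all lists. The first, chr19:53932196-53933242, had pileups of 4255 and 4689 in wild type, then 3396 and 3748 in the knockout, a log2 ratio of −0.32. At chr19:43663139-43664551 they were 3741 and 4295, then 2721 and 3386. At chr19:5836209-5837601 they were 3836 and 4036, then 3084 and 3490. In these regions all knockout values lay below all wild-type values.

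Next in rank were chr19:8796329-8797941 and chr19:46749107-46750605. The former had 3214 and 3550 in wild type, then 2836 and 3245 in the knockout, so that the genotypes overlapped. The latter had 3404 and 3932, then 2420 and 2947. The log2 ratios of the 5 ranged from −0.45 to −0.16, and 3 of them lay above −0.36, the median of the other autosomes.

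The longest shared regions differed in how far the genotypes lay apart. The longest, chr19:3371563-3375651, covered 4089 bp, with pileups of 780 and 820 in wild type, then 646 and 710 in the knockout. The second, chr19:40368845-40372631, had 1762 and 1927, then 904 and 1146, a log2 ratio of −0.86. The third, chr19:11986250-11989905, had 1823 and 1912 in wild type, then 1966 and 1894 in the knockout, so that the genotypes overlapped, and its log2 ratio was 0.05.

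The fourth longest, chr19:24148848-24152483, had pileups of 886 and 1019 in wild type, then 534 and 588 in the knockout. The fifth, chr19:5889599-5893152, had 1118 and 1202, then 788 and 695, over a local background of 723 and 710 in wild type, then 519 and 515 in the knockout. Its fold was only 1.55 and 1.69 in wild type, then 1.52 and 1.35 in the knockout, the lowest of the 5. Shared regions of at least 2500 bp numbered 33 on chromosome 19 (2.76%, against 2.14% elsewhere).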

How the data were processed

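ATAC-seq peak lists of 4 B16-F10 libraries were used, 1 list per library. Per the submitters' processing notes the caller was MACS2 and the build GRCm39. How reads were aligned, shifted for Tn5 or filtered for duplicates, and with which versions, is not given in the sources used here. The authors deposited for each call a fold enrichment (a ratio), −log10 p and −log10 q values, and a display score that was not used. These values are the authors' own and depend on depth.

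Positions were made 1-based and calls merged where they overlapped by at least 1 bp. Where a region held several calls of a library, the strongest was used. Summit pileup and local background were solved from fold, (pileup + 1) / (background + 1), and the Poisson −log10 p. On chromosome 19 100% of the pileups came out whole within 0.05. No test was made, since the chromosome was chosen by the same contrast. Intervals are Wilson 95% intervals. Named regions were all gained regions, the 12 lost regions of highest wild-type rank and, among shared regions, 5 each of highest rank, greatest length, and lowest and highest pileup ratio without overlap between genotypes. The members and lists were chosen with earlier results of these data known.

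No sequence or gene is given, because the reference tables at hand are of another build. The alternatives tried were a stricter q-value, lists of equal length, a cover of 50%, each library left out, a stricter strong class, another reference, fold for pileup and 5 Mb bins. The scripts were tested on simulated data and run with Python 3.11.15, numpy 2.4.6, pandas 2.3.3 and scipy 1.17.1.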

Additional observations from a re-analysis of the deposited data

How the results depend on the processing

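No paired analysis was possible because the results come from no test and the labels do not present the replicate numbers as a pairing. Among the settings tried for each value that can move its rank, chromosome 19 had the lowest gained share of the autosomes in 7 of 7 and the lowest pileup ratio in 5 of 6 (all but fold in place of pileup). The 6 do not count the later choice of regions with the genome-wide background, where chromosome 13 was lower. Chromosome 19 had the highest lost share in 5 of 7 (not with lists of equal length or without wild-type replicate 1) and the lowest call ratio in 3 of 6 (not in those or without knockout replicate 2). With lists of equal length, cut to the 50068 strongest calls, 97 regions were lost, 31 gained and 1 was strong and lost. The lost share was then 5.95%, against 4.56% elsewhere with 4 autosomes higher, the call ratio relative to the other autosomes was 0.935 in place of 0.911, and the fullest bin, the short last one, had 11.4% lost. With a −log10 q of at least 5, 4 regions were gained and the relative call ratio was 0.937. Where calls had to cover 50% of a region, 17 were gained, 11 were strong and lost, and the pileup ratio relative to the other autosomes was −0.086 in place of −0.091. Leaving out each library gave 221 to 345 lost (11.6% to 18.3%), 20 to 40 gained, 6 to 21 strong and lost, a relative pileup ratio of −0.092 to −0.084 and 17.5% to 28.6% lost in the fullest bin. The 345 and the 21 came without knockout replicate 2, the 40 without knockout replicate 1 and the 18.3% without wild-type replicate 1, where another autosome had a higher lost share. The 28.6% also came without wild-type replicate 1, where the fullest bin was the short last one. With strong set above the 75th percentile, 0 strong regions were lost. Without chromosome 6 in the reference the relative pileup ratio was −0.085, at regions with the genome-wide background (added after the data were seen) −0.067, and with fold in place of pileup 0.012, the opposite sign. Fold divides the pileup by the local background, whose ratio was also lower on chromosome 19. The part of each in the change of sign was not tested. Read depth is not known. Most losses and all gains lie among weak calls, and the part that depth plays in them was not tested.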
